A study of Homo sapiens with 80 samples.

Results

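Human pluripotent stem cells at the first step of cardiomyocyte differentiation were compared with the same cultures before induction. The 12 libraries described are those of day 0 and of day 2 or 3 from 6 differentiations, out of 80 libraries in the series. They were chosen by their day and experiment, with earlier results of these data known. Each differentiation gave 1 library per day, so the 6 differentiations are the replicates and every change is a difference within a differentiation. Differentiations of the same cell line share its genotype, sampling day and medium schedule, and the p-values below treat their changes as independent. The study classed a differentiation as high or low purity from the share of cells with cardiac troponin T at day 16, read by flow cytometry, and the comparison asks which transcripts moved in the same direction in all 6 of them.

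The libraries came from 3 unmodified lines: H9, a human embryonic stem cell line, and IMR90-4 and WTC11, both induced pluripotent stem cell lines. H9 was at passage 55 in the low purity and at passage 58 in the high purity differentiation. IMR90-4 was at passage 75 in the low purity and at passage 55 in the high purity differentiation. WTC11 was at passage 69 in the low purity and at passage 81 in the high purity differentiation. Cultures were moved from mTeSR1 to RPMI with B27 lacking insulin on day 0 and received CHIR99021 at 6 to 12 µM, an inhibitor of the kinase GSK3 that turns WNT signalling on. WTC11 was sampled on day 2, the day on which IWP2 at 5 µM, an inhibitor of WNT secretion, was added. H9 and IMR90-4 had CHIR99021 removed on day 1 and were sampled on day 3, the day of their IWP2 addition. Line, day and medium schedule therefore cannot be told apart between WTC11 and the other lines, and passage and purity cannot be told apart within a line. The labels do not say whether each library held 1 well or several, so p-values measure the spread between differentiations only.

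In the embryo and in this protocol, WNT signalling first gives primitive streak cells, marked by T-box and homeobox factors such as TBXT, EOMES and MIXL1. These cells lose the epithelial state and become mesoderm, with MESP1 as the factor of the earliest cardiac mesoderm, or definitive endoderm, with SOX17. Pluripotency factors such as NANOG and SOX2 are switched off on the way.

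Libraries held 21180452 to 39179812 reads assigned to genes. RN7SK, a small nuclear RNA that the total RNA kit captures, took 1.59% to 2.89% of reads at day 0 and 4.62% to 6.04% later, and its part in the results was not tested. With protein-coding genes alone in the library sizes the number of called genes was 4103, against 4045 as reported below. The pluripotency markers fixed as a list were present at day 0 in all lines, with a summed level of 7960 to 9500 TMM-scaled CPM, the reads of a gene relative to all reads assigned in its library. An exception was POU5F1, the gene of OCT4, which was at 317 and 340 CPM in H9 and at 1.51 to 1.78 CPM in the other day 0 libraries. In the stretch of chromosome 6 that holds it, the major histocompatibility region, 4 of 5 protein-coding genes at 5 CPM or more in H9 were at under 10% of that level in the other lines, against 0.11% of 10944 such genes elsewhere. Values of POU5F1 in IMR90-4 and WTC11 are therefore not described below, although its call is counted in its list. The H9 low purity library of day 3 stood apart from the others in several marker lists, as its values below show. Without this differentiation 3950 genes were called and 3713 had 1 direction in the other 5.

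A large and largely common change took place within 2 to 3 days. Of 19512 genes tested with edgeR's quasi-likelihood test, 4045 (20.7%) were called, meaning a Benjamini-Hochberg adjusted p under 0.05 and at least a 2-fold change. Of these, 2223 rose (11.4% of the genes tested) and 1822 fell (9.34%). In 3509 genes the change was called and had the same direction in all 6 differentiations, with 1906 higher (9.77%) and 1603 lower (8.22%). The 536 other called genes went against the average in at least 1 differentiation. In 648 genes the rise was at least 2-fold in each of the 6 differentiations, and in 527 genes the fall was. The day 0 and later libraries did not overlap in 4037 of the genes tested (20.7%).

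By RNA class, 1247 of the 14590 protein-coding genes tested were shared increases and 1269 shared decreases. Among 2664 long noncoding RNA genes there were 421 shared increases and 167 shared decreases. Across genes, the changes of the low and high purity differentiations of a line had a Pearson r of 0.79 in H9, 0.91 in IMR90-4 and 0.82 in WTC11, while r between a WTC11 differentiation and one of the other lines lay between 0.44 and 0.66. These correlations describe genes, which are not independent replicates, and libraries of a line share its genotype and day.

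Primitive streak genes rose almost without exception: 10 of the 11 tested of 12 listed genes were called higher and none lower. Of all genes tested, 11.4% were called higher. The median log2 fold change of the list was 7.36 against 0.04 for all genes. TBXT, the T-box factor that defines the streak, was at 0.0276 to 0.124 CPM at day 0, with a median of 0.0686. It reached 1.4 CPM in H9 low, 5.7 in H9 high, 9.87 in IMR90-4 low, 12.3 in IMR90-4 high, 204 in WTC11 low and 412 in WTC11 high. The day 2 WTC11 libraries were the highest and the H9 low library the lowest, and no later library overlapped day 0. The mean log2 change was 7.34 ± 3.14 (SD, n = 6 differentiations), with an edgeR adjusted p of 0.000409.

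EOMES, a T-box factor of both mesoderm and endoderm precursors, rose by a mean log2 change of 9.26 ± 1.96 (SD, n = 6, edgeR adjusted p 6.59e-05). Its day 0 level was 0.0618 to 0.308 CPM, and later levels were 7.4 CPM in H9 low, 150 in H9 high, 332 and 383 in IMR90-4 low and high, and 156 and 198 in WTC11 low and high. H9 low was again the lowest, and the other libraries lay within a 3-fold range of each other. MIXL1, a homeobox factor of the streak, went from 0.846 to 1.35 CPM at day 0 to 9.26 CPM in H9 low and 133 to 647 CPM in the other libraries (edgeR adjusted p 0.000938). EVX1, a homeobox factor of the posterior streak, had 0 reads in all 6 day 0 libraries and 2138 reads later, which is at least 818-fold higher when the floor is set at 3 reads over the 6 libraries. The median of the list is the same with EVX1 at this bound. GSC, a homeobox factor of the anterior streak, rose from at most 0.0827 CPM to 0.677 CPM in H9 low and 5.33 to 49.2 CPM elsewhere. FOXA2, a forkhead factor of the anterior streak and endoderm, was at 0.254 CPM in H9 low and at 3.6 to 71.1 CPM in the other later libraries.

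CER1, a secreted inhibitor of NODAL and BMP, was called higher but not in all 6 differentiations, because it was at 1.18 CPM at day 0 and 0.465 CPM at day 3 in H9 low. Its other later values were 14 CPM in H9 high, 540 and 682 in IMR90-4 low and high, and 156 and 362 in WTC11 low and high. NODAL, the ligand that maintains the streak, was not called (log2 fold change 0.27, edgeR adjusted p 0.857). Its values spread widely: it stood at 129 and 133 CPM in WTC11 after 17 and 15.1 CPM at day 0, but at 1.51 to 3.58 CPM in H9 high and IMR90-4 after 3.74 to 21.4 CPM.

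**Figure D1:**
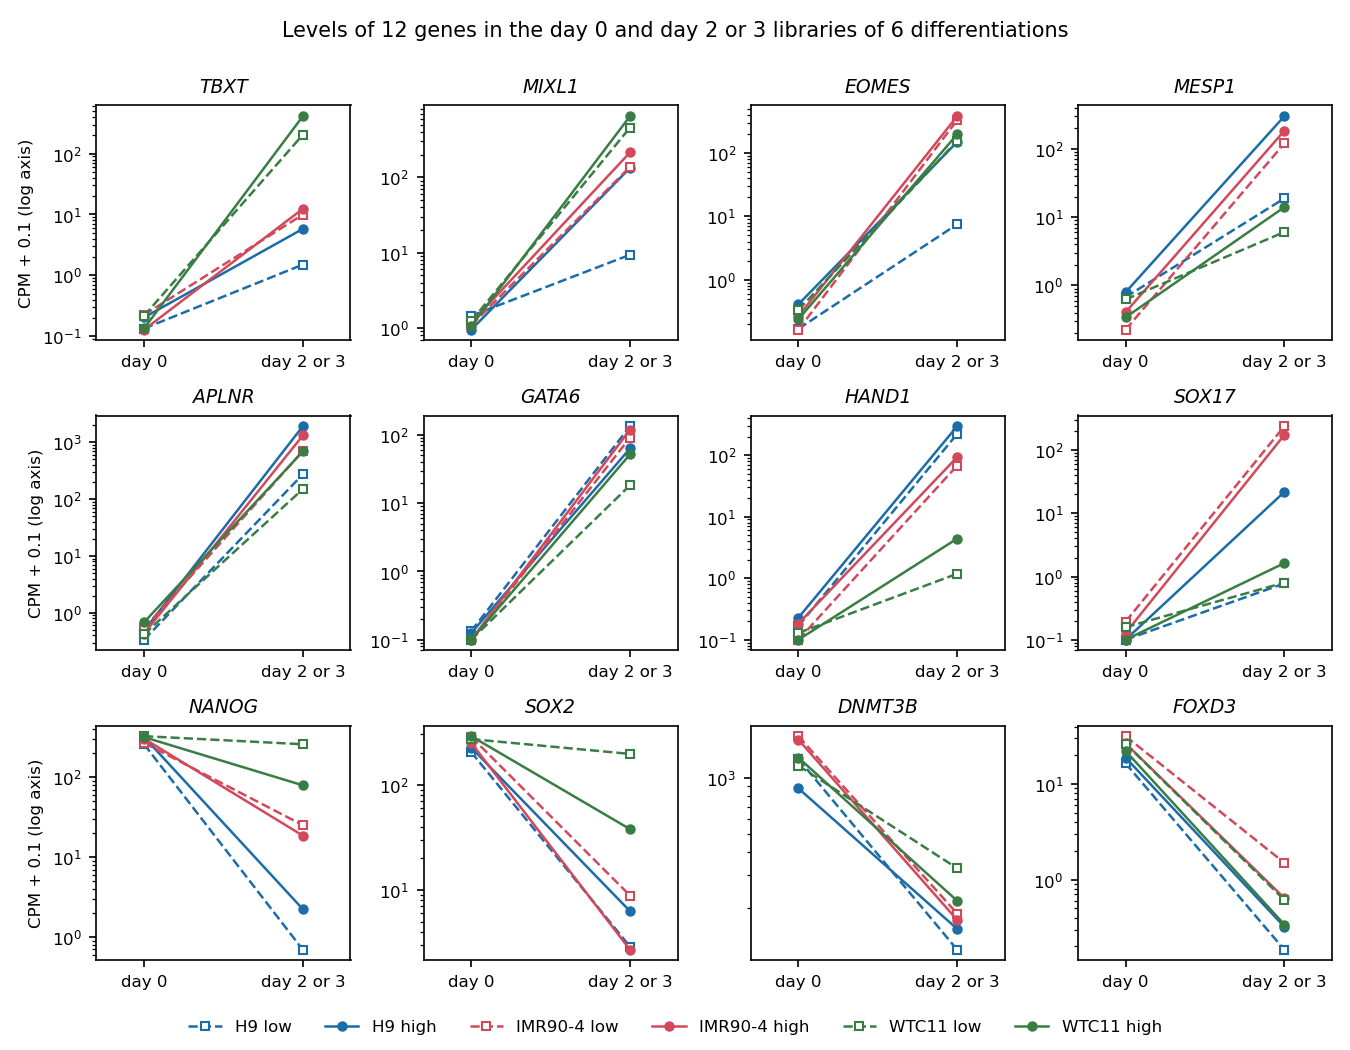
Levels of 12 genes in CPM plus 0.1 on a log axis, at day 0 and at day 2 or 3. Each line joins the 2 libraries of 1 differentiation (blue H9, red IMR90-4, green WTC11; filled circles and solid lines high purity, open squares and dashed lines low purity). TBXT, MIXL1 and EOMES end lowest in H9 low, at 1.4, 9.26 and 7.4 CPM, and NANOG and SOX2 end highest in WTC11 low, at 260 and 196 CPM.

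Genes that the WNT pathway itself induces rose with the streak genes. Of 17 tested feedback genes and targets, 12 were called higher and 1 lower, against 11.4% and 9.34% of all genes tested. The median log2 fold change was 2.48. AXIN2, a scaffold of the complex that degrades beta-catenin and the usual readout of the pathway, was at 16.4 to 25.8 CPM at day 0. It was at 49 and 101 CPM in H9 low and high, 55 and 56.4 CPM in IMR90-4, and 258 and 144 CPM in WTC11 low and high. All later libraries were above all day 0 libraries, and the mean log2 change was 2.19 ± 1.07 (SD, n = 6, edgeR adjusted p 0.00338). LEF1, the DNA-binding partner of beta-catenin, rose from a median of 0.256 CPM to 14 and 29.3 CPM in IMR90-4 low and high and to 91 to 237 CPM in H9 and WTC11 (edgeR adjusted p 0.000395). DKK1, a secreted WNT inhibitor, rose from a median of 0.0919 CPM to 20 CPM in H9 low, 60.3 in H9 high, 113 and 119 in IMR90-4, and 606 and 1520 in WTC11 low and high, with a mean log2 change of 9.76 ± 2.25 (SD, n = 6).

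SP5, NKD1, TCF7, LGR5, NOTUM, APCDD1 and TNFRSF19 were also shared increases, and RNF43, an E3 ligase that removes WNT receptors, was called higher but lacked the increase in IMR90-4 high (2.15 to 1.87 CPM). TCF7, another DNA-binding partner of beta-catenin, had the narrowest range of these, with a mean log2 change of 1.58 ± 0.33 (SD, n = 6). MYC fell, from 43.9 to 61.6 CPM at day 0 to 3.58 to 17.8 CPM later (mean log2 change -2.62 ± 0.87, SD, n = 6, edgeR adjusted p 0.000845). ZNRF3, CCND1, FZD7 and KREMEN1 were not called. CCND1, a G1 cyclin often given as a WNT target, had a log2 fold change of -0.26.

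Of 8 WNT ligand genes tested of 12 listed, 6 were called higher and none lower, against 11.4% higher among all genes tested. WNT8A rose in all 6 differentiations, from at most 0.34 CPM to 14.5 CPM in H9 low, 61.1 in H9 high, 90.9 and 123 in IMR90-4, and 29.7 and 38.6 in WTC11 low and high (mean log2 change 8.44 ± 1.21, SD, n = 6, edgeR adjusted p 6.59e-05). WNT5A, a ligand that acts mainly outside the beta-catenin route, rose from 3.29 to 5.79 CPM to 77.5 to 466 CPM. WNT3A rose in 5 of 6 differentiations and was at 1.25 and 1.14 CPM in H9 low. WNT3, the ligand that starts the streak in mice, had too few reads to be tested, with at most 1.07 CPM in any library.

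The TCF/LEF factors bind the letters CTTTGAT, and the 250 bases before the annotated start of 3 genes that rose hold them, so these stretches are shown to set sequence beside expression. Of the genes in the streak, mesoderm and WNT target lists whose promoters RefSeq's table for GRCh38.p14 gives, 3 of 23 (13.0%) held the motif on either strand, against 2.26% of all 35116 RefSeq promoters of the same length. A match is a description of letters, not a binding site. The motif is in capitals, written on the strand of the gene, where its reverse complement reads ATCAAAG.
SP5, chr2:170715087-170715336, plus strand: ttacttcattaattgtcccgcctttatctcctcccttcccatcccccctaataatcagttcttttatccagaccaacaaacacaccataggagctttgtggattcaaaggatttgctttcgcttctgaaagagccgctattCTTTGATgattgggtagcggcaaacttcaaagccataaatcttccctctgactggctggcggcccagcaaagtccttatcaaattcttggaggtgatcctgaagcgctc
MIXL1, chr1:226223414-226223663, plus strand: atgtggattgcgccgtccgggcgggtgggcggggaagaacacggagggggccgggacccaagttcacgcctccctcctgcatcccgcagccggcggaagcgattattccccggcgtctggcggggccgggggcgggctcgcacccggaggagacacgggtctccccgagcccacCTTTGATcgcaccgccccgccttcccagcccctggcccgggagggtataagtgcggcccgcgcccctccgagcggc
HAND1, chr5:154478228-154478477, minus strand: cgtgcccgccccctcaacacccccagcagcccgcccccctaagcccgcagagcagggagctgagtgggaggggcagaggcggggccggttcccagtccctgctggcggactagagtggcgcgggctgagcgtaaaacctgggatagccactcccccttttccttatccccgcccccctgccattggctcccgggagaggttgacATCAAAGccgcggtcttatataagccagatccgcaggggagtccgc

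SP5, a transcription factor gene and a direct WNT target, was at 2.66 and 4.15 CPM in H9 and at most 0.291 CPM in the other lines at day 0. It rose to 8.2 and 62.8 CPM in H9 low and high, 121 and 72.5 in IMR90-4 low and high, and 316 and 417 in WTC11 low and high (mean log2 change 7.47 ± 4.06, SD, n = 6, edgeR adjusted p 0.00975). The smallest gain was in H9 low and the largest in WTC11.

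Mesoderm genes rose in all lines. Of 15 genes tested, 13 were called higher, none lower, and KDR and MEST were not called, against 11.4% higher among all genes tested. The median log2 fold change of the list was 5.63. For MESP1, MESP2, HAND1, PDGFRA, BMP4 and SNAI2 every day 3 library of H9 and IMR90-4 was above both day 2 libraries of WTC11. MESP1 was at 0.124 to 0.692 CPM at day 0 and at 18.7 CPM in H9 low, 301 in H9 high, 120 and 184 in IMR90-4 low and high, and 5.94 and 13.9 in WTC11 low and high. Every later library was above every day 0 library, and the mean log2 change was 6.78 ± 2.51 (SD, n = 6, edgeR adjusted p 0.00131). MESP2, its neighbour and paralog, went from 0.232 to 2.1 CPM at day 0 to 1.03 and 2.05 CPM in WTC11 and up to 217 CPM in IMR90-4 high.

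APLNR, the apelin receptor of migrating mesoderm, was at 0.236 to 0.582 CPM at day 0 and at 150 to 1920 CPM later, with a median of 696 and its highest value in H9 high. Its mean log2 change was 10.46 ± 1.27 (SD, n = 6, edgeR adjusted p 6.59e-05). By its fitted log2 fold change of 10.79 it was among the 12 largest shared increases named below. GATA6 and GATA4, zinc finger factors of heart and endoderm precursors, were near 0 at day 0. GATA6 had 2 reads over the 6 day 0 libraries and 13710 later, a ratio of 7870 with a 95% counting interval of 2180 to 65000, and its later level was 18.2 to 134 CPM. GATA4 rose from at most 0.168 CPM to 13.6 to 49.3 CPM, with the smallest value in WTC11 low. HAND1, a basic helix-loop-helix factor of lateral mesoderm, reached 221 and 295 CPM in H9, 67.5 and 92.9 in IMR90-4, and 1.08 and 4.3 CPM in WTC11 low and high. PDGFRA, a receptor of paraxial and cardiac mesoderm, was highest in H9 low at 1590 CPM and lowest in WTC11 low at 26.2 CPM, after 2.77 to 11.3 CPM at day 0.

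KDR, the VEGF receptor of cardiovascular progenitors, was already at 60.3 to 195 CPM at day 0 and at 84.9 to 375 CPM later, with overlapping groups (log2 fold change 0.47, edgeR adjusted p 0.222). TBX3, SNAI2, TMEM88, LIX1, FLRT3 and BMP4 completed the called members. LIX1 covered the widest range, from 6.66 CPM in IMR90-4 low to 875 CPM in H9 low. These are bulk libraries, in which fewer cells of a type and less RNA per cell cannot be told apart.

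Of 11 tested genes of presomitic mesoderm and the Notch oscillator, 7 were called higher and 1 lower. The shares of all genes tested were 11.4% and 9.34%. The median log2 fold change of the list was 1.47, and limma on log2(TPM + 1) called 4 higher. TBX6, the T-box factor of paraxial mesoderm, rose from 0.787 to 3.77 CPM to 6.77 to 68.6 CPM (mean log2 change 4.16 ± 1.31, SD, n = 6, edgeR adjusted p 0.000709). MSGN1, a factor of presomitic mesoderm with 0 reads at day 0, had 62.5 and 257 CPM in WTC11 low and high and 0.379 to 1.95 CPM in the other lines. Its 7828 later reads are at least 2990-fold above the floor of 3 reads over the day 0 libraries. DLL3, a Notch ligand, rose to 25.7 CPM in H9 low and 67 to 410 CPM elsewhere. NRARP, an inhibitor of Notch signalling, fell (mean log2 change -1.17 ± 0.71, SD, n = 6, edgeR adjusted p 0.00932). NOTCH1, HEY1 and RIPPLY2 were not called.

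Endoderm genes rose together with mesoderm genes in these bulk samples, most in IMR90-4. Of 7 genes tested of 10 listed, 5 were called higher and none lower, against 11.4% higher among all genes tested. SOX17, the factor that defines definitive endoderm, had 6 reads in all at day 0. It was at 239 and 174 CPM in IMR90-4 low and high and at 21.7 CPM in H9 high. H9 low, with 0.677 CPM, and WTC11, with 0.701 and 1.53 CPM, stayed low. CXCR4, a chemokine receptor used to sort endoderm, rose to 7.53 and 30.6 CPM in H9, 97 and 81.9 in IMR90-4, and 20.6 and 91.5 in WTC11. TTR, a gene of later liver endoderm, had at most 0.0541 CPM in any library.

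Pluripotency genes fell, though not all of them and not equally in all lines. Of 22 tested of 24 listed, 16 were called lower, against 9.34% of all genes tested, and none higher. The median log2 fold change was -2.78. NANOG, a homeobox factor of the pluripotent state, was at 260 to 328 CPM at day 0. It fell to 0.592 and 2.13 CPM in H9 low and high and to 25.1 and 18.5 CPM in IMR90-4 low and high. In WTC11 it was at 260 CPM in the low and 79.4 CPM in the high purity differentiation, so that the WTC11 low library of day 2 reached the lowest day 0 value. The mean log2 change was -4.27 ± 3.13 (SD, n = 6, edgeR adjusted p 0.0278), and this call was lost in 3 of the 6 fits that left out a differentiation (H9 high, IMR90-4 high or IMR90-4 low).

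SOX2, a partner of OCT4, showed the same order, with 204 to 289 CPM at day 0, 2.6 to 8.74 CPM in H9 and IMR90-4 at day 3, and 196 and 37.7 CPM in WTC11 low and high at day 2. Its mean log2 change was -4.38 ± 2.29 (SD, n = 6, edgeR adjusted p 0.00593). DNMT3B, the de novo DNA methyltransferase of pluripotent cells, was at 876 to 1670 CPM at day 0 and at 119 to 326 CPM later. It fell by similar amounts in all 6 differentiations (mean log2 change -2.78 ± 0.59, SD, n = 6, edgeR adjusted p 0.000206). TERF1, which encodes a telomere-binding protein, fell from 172 to 284 CPM to 22.9 to 37.7 CPM, with a mean log2 change of -3.01 ± 0.45 (SD, n = 6). USP44, a deubiquitinase, ZFP42, DPPA2, DPPA4, L1TD1, PRDM14, FOXD3, TFCP2L1, GDF3 and SFRP2 also fell in all 6.

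POU5F1 can be read in H9 only, where it went from 317 to 12.9 CPM in the low and from 340 to 37 CPM in the high purity differentiation. The members that were not called included LIN28A, an RNA-binding protein, at 2260 to 2970 CPM at day 0 and 1320 to 2580 CPM later. SALL4, a zinc finger factor, had a log2 fold change of 0.28 and overlapping groups. TDGF1, the NODAL co-receptor, was at 466 to 882 CPM at day 0 and at 164 to 618 CPM in 5 later libraries, with 4.74 CPM in H9 low. NANOG and POU5F1 have near-identical pseudogene copies, so that their counts depend on how reads with several matches were assigned.

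Among 8 tested genes of DNA methylation and demethylation, DNMT3B fell and TET2 rose, and the rest were not called. These counts are near the share of all genes tested, of which 11.4% were called higher and 9.34% lower. TET2, which oxidises methylcytosine, went from 7.08 to 16.6 CPM to 30.7 to 48.1 CPM (mean log2 change 1.82 ± 0.49, SD, n = 6, edgeR adjusted p 0.000457). All later libraries were above all day 0 libraries. TET1, its relative, had a log2 fold change of 0.02, and DNMT1, the maintenance enzyme, of -0.66.

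The miR-302/367 cluster on chromosome 4 is the main microRNA gene group of pluripotent cells. Its sequences are shown because 4 of the 5 share a seed (bases 2 to 8, in capitals), so their counts stand for a single target family, here from RefSeq on GRCh38.p14.
hsa-miR-302a-3p: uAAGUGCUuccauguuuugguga
hsa-miR-302b-3p: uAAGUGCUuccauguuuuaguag
hsa-miR-302c-3p: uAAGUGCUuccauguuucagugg
hsa-miR-302d-3p: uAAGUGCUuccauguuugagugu
hsa-miR-367-3p: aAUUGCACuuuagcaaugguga

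The counts at these genes come from long RNA libraries and measure the hairpin region of the transcript, not the mature microRNA. MIR302A was at 34.3 to 53.3 CPM at day 0, and later at 2.33 and 31.3 CPM in H9 low and high, 114 and 97.1 in IMR90-4 low and high, and 32.6 and 13.7 in WTC11 low and high. IMR90-4 was above its own day 0 and the other lines below theirs. The 7 microRNA list genes tested had edgeR adjusted p values of 0.125 or more. All 5 genes of the cluster had lower TMM-scaled CPM in both WTC11 and both H9 differentiations and higher CPM in both IMR90-4 differentiations, by little in H9 high.

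Some epithelial genes fell and many mesenchymal genes rose. Of 20 genes of adhesion and epithelial-mesenchymal transition, 12 were called higher and 4 lower, against 11.4% and 9.34% of all genes tested. CDH2, the N-cadherin gene, rose from 44.1 to 50.1 CPM to 194 and 224 CPM in H9, 535 and 459 in IMR90-4, and 586 and 789 in WTC11 (mean log2 change 3.13 ± 0.75, SD, n = 6, edgeR adjusted p 0.000289). ZEB2, a repressor of epithelial genes, rose from 0.0276 to 0.582 CPM to 36.4 to 68.5 CPM, a narrow range over all lines (mean log2 change 7.83 ± 0.92, SD, n = 6, edgeR adjusted p 8.1e-05). MMP2, a gelatinase, had the most uniform change of the list, from 16.2 to 35.1 CPM to 114 to 234 CPM, with a mean log2 change of 2.78 ± 0.12 (SD, n = 6, edgeR adjusted p 8.41e-06).

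CDH1, the E-cadherin gene, was not called (edgeR adjusted p 0.148), and its values separate the lines. It was at 187 to 298 CPM at day 0, and at 1.69 and 6.77 CPM in H9 and 48.9 and 37 CPM in IMR90-4 at day 3, while WTC11 had 331 and 345 CPM at day 2. EPCAM, CLDN3 and RAB25, other epithelial genes, were likewise not called. ESRP1 and ESRP2, splicing factors of epithelia, the tight junction gene CLDN6 and the epithelial factor GRHL2 fell in all 6 differentiations. SNAI1, SNAI2, ZEB1, TWIST1, CDH11, VIM, FN1, ITGA5 and MMP14 were shared increases. TWIST1 was at 33.3 to 65.4 CPM in H9 and IMR90-4 and at 1.27 and 6.83 CPM in WTC11.

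Genes of the BMP, FGF and NODAL pathways were examined in the same way. In the BMP list 10 of 15 tested genes were called higher and none lower, against 11.4% higher among all genes tested. BMP4 rose from 1.36 to 6.13 CPM to 178 and 204 CPM in H9, 40.9 and 82.1 in IMR90-4, and 9.6 and 26.7 in WTC11 (mean log2 change 4 ± 2.42, SD, n = 6, edgeR adjusted p 0.0115). MSX1, a homeobox target of BMP, rose from at most 0.333 CPM to 22.4 to 144 CPM. ID1, another BMP target, was not called and had a log2 fold change of 0.

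In the FGF list 4 of 19 tested genes were called higher and 2 lower, against 11.4% and 9.34% of all genes tested, and without IMR90-4 low 2 were called higher. With only H9 and IMR90-4 4 were called lower. FGF17 rose from at most 0.236 CPM to 3.17 CPM in H9 low and 62.2 to 304 CPM elsewhere, with a mean log2 change of 9.1 ± 3.04 (SD, n = 6, edgeR adjusted p 0.000404). FGF4 and FGF8, ligands of the streak, rose too, and FGF2 fell from 104 to 203 CPM to 21.1 to 103 CPM. Of the MAPK feedback genes, DUSP4 was called higher, and SPRY1, SPRY2, SPRY4 and DUSP6 were not called. In the NODAL list 2 of 15 genes were called higher (CER1 and FOXH1) and 2 lower (LEFTY1 and GDF3), also near the share of all genes. LEFTY2 was at 108 CPM in H9 high and 437 and 242 CPM in IMR90-4 after 12.6 to 25.6 CPM, but at 3.21 and 2.91 CPM in WTC11 after 47.8 and 40.7 CPM. LEFTY1 and LEFTY2 are near-identical neighbours, and their counts are uncertain.

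**Figure D2:**
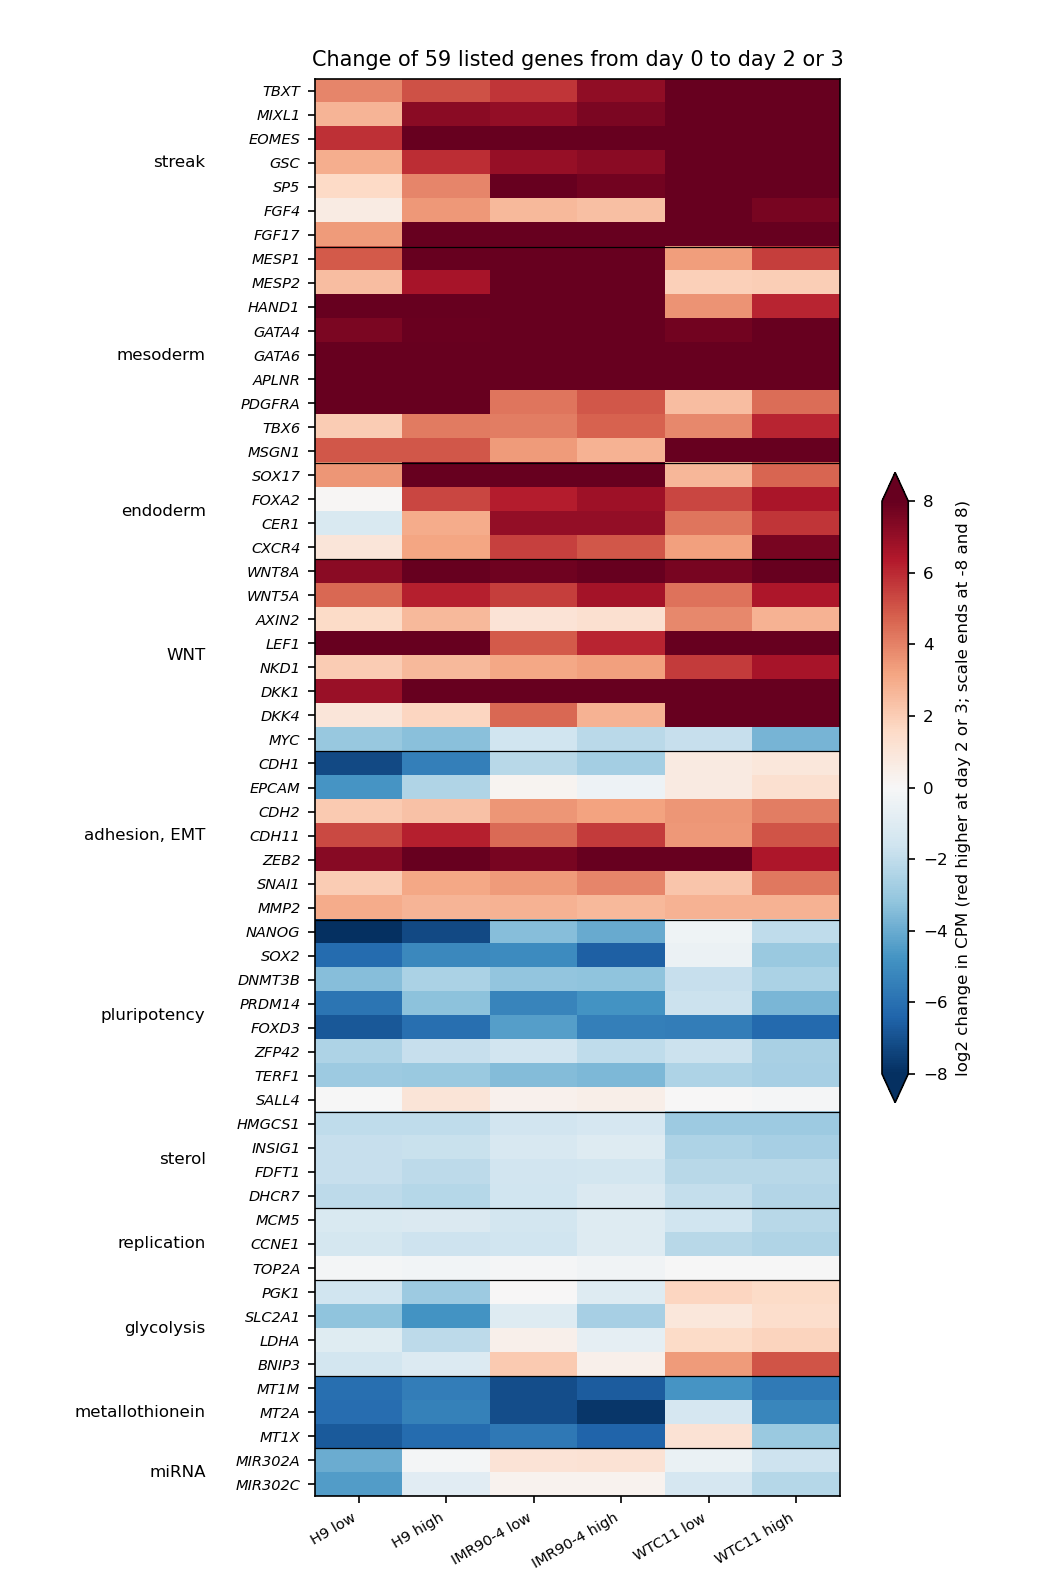
Log2 change in CPM from day 0 to day 2 or 3 of 59 listed genes (1 per line, grouped by list) in the 6 differentiations (columns); red is higher and blue lower at day 2 or 3, and the colour scale ends at -8 and 8. TBXT, MIXL1 and EOMES are red in all columns and lightest in H9 low, where MIXL1 changed by 2.72, while CDH1 is blue in H9 and IMR90-4 and close to white in WTC11.

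Some CDX and HOX genes of the trunk rose within the same interval. Of the 5 genes tested of 14 listed, 4 were called higher, against 11.4% of all genes tested. All 4 were shared: CDX1, CDX2, HOXB2 and HOXB3. The other, CDX4, was not called, with a mean log2 change of 2.79 in WTC11 and -2.40 in the other lines, a difference called by the edgeR interaction test (6.18, adjusted p 0.0113). With limma on log2(TPM + 1) 7 genes of the list were called higher. CDX1, a homeobox factor that acts upstream of HOX genes, had 4 reads in all at day 0 and was later at 15.9 and 7.5 CPM in H9 low and high, 2.56 and 1.62 in IMR90-4 and 115 and 182 in WTC11 (mean log2 change 7.58 ± 3.07, SD, n = 6, edgeR adjusted p 0.000289). Most HOX genes had too few reads in enough libraries to be tested. HOXB1 was at 179 CPM in H9 low, 7.25 in H9 high, 19.1 and 34 in WTC11, and at most 0.376 in IMR90-4.

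Genes of metabolism and proliferation changed by smaller amounts than streak or mesoderm genes. Of 18 genes of sterol synthesis, 13 were called lower, against 9.34% of all genes tested, and none higher. The median log2 fold change was -1.36. HMGCS1, which makes HMG-CoA for the mevalonate route, was at 688 to 1030 CPM at day 0 and at 255 and 168 CPM in H9, 246 and 266 in IMR90-4, and 94.7 and 115 in WTC11 later. All later libraries were below all day 0 libraries (mean log2 change -2.13 ± 0.66, SD, n = 6, edgeR adjusted p 0.000569). FDFT1, which makes squalene, fell by nearly the same amount in each differentiation (mean log2 change -1.89 ± 0.32, SD, n = 6). INSIG1, SQLE, MVD, FDPS, LSS, DHCR7, IDI1, STARD4 and CYP51A1 were among the others that fell, while SREBF2, the transcription factor of the pathway, was not called (log2 fold change -0.15).

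Of 16 cell cycle genes, 6 were called lower and none higher, and the median log2 fold change was -0.80. The 6 were PCNA, MCM4, MCM5, MCM6 and MCM7, which act in DNA replication, and CCNE1, the G1/S cyclin E. CCNE1 went from 41.9 to 92.2 CPM to 13.1 to 35.9 CPM (mean log2 change -1.71 ± 0.51, SD, n = 6, edgeR adjusted p 0.00056). The 10 others were not called and had log2 fold changes from -0.91 for MCM3 to -0.03 for CCNB2. MCM2, MCM3, CCNB1 and CCNA2 missed only the fold threshold, with edgeR adjusted p from 0.000206 to 0.00379. With only H9 and IMR90-4, 2 genes of the list were called lower. The mitotic cyclin genes CCNB1 and CCNA2 were both at -0.71, the mitotic genes MKI67 and TOP2A at -0.16 and -0.14, and CCNE2, another cyclin E gene, at -0.13. With only H9 and IMR90-4 in the fit, 2 genes of the list were called lower instead of 6. Of 13 p53 target genes, CDKN1A, GDF15 and BTG2 rose and 10 were not called. Among all genes tested, 20.7% were called in either direction, 11.4% higher and 9.34% lower.

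Metallothionein genes, which encode small zinc and copper binding proteins, were listed with SLC30A1, a zinc exporter. Of 8 genes tested, 7 were called lower, against 9.34% of all genes tested, none higher, and SLC30A1 was not called. The median log2 fold change was -5.13. Without the IMR90-4 low differentiation 4 were called lower. Only MT1M and MT2A among them fell in all 6 differentiations. MT2A was at 66.4 to 86.9 CPM at day 0 and at 0.244 to 1.84 CPM in 5 later libraries, with 33.6 CPM in WTC11 low. MT1X went from 81 to 440 CPM to 2.83 to 10.2 CPM in 5 differentiations and from 73.2 to 166 CPM in WTC11 low. The same library was above its day 0 value for MT1E, MT1F, MT1G and MT1H. Members of this family are near-identical, and reads that match several of them make each single value uncertain.

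The promoter of MT2A is printed because metallothioneins are induced through metal response elements, whose core reads TGCACNC or TGCGCNC on either strand. All 4 metallothionein promoters in RefSeq's table held at least 1 match and 3 of them held 3 or more, against 24.8% and 1.58% of all 35116 promoters. In MT2A the 250 bases before the start held 7 matches, in capitals, of which those on the other strand read as the reverse complement.
MT2A, chr16:56608334-56608583, plus strand: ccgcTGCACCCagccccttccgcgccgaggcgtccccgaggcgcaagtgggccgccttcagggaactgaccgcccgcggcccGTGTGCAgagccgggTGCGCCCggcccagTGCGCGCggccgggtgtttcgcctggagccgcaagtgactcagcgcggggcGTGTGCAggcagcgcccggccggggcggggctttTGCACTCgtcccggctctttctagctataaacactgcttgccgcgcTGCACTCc

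Glycolysis and hypoxia genes were called in 3 of 19 cases, a share below the 20.7% of all genes tested. With only H9 and IMR90-4, 1 was called higher and 7 lower. NDRG1 and VEGFA rose and EGLN3, a prolyl hydroxylase, fell. By the edgeR interaction test the change was more positive in WTC11 for PFKFB4 (4.29), DDIT4 (3.66), ANKRD37 (3.57), HK2 (2.4) and PFKFB3 (1.96). PGK1, a glycolytic enzyme, moved in opposite directions in H9 and WTC11. Its difference between WTC11 and the other lines was 3.03 and was not called (edgeR adjusted p 0.0613). PGK1 was at 1630 and 3110 CPM in H9 at day 0 and 539 and 422 CPM at day 3. It went from 667 to 2230 CPM in WTC11 low and from 502 to 1440 CPM in WTC11 high. The H9 day 0 libraries were also the highest of the day 0 libraries for SLC2A1, the glucose transporter, at 560 and 891 CPM against 170 to 306 CPM. With only H9 and IMR90-4 in the fit, 1 gene of the list was called higher and 7 lower.

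Insulin was absent from the induction medium, and its part in the changes of the insulin and FOXO list was not tested. Of 11 tested genes of this list, 3 were called higher (TXNIP, ARRDC4 and SESN3) and 1 lower (FOXO1). Among all genes tested, 11.4% were called higher and 9.34% lower. IRS2, INSR and IGF1R were among the list genes not called. FOXO1 went from 66.8 to 90.9 CPM to 16.1 to 54.1 CPM (mean log2 change -1.74 ± 0.54, SD, n = 6, edgeR adjusted p 0.000593). Of 13 genes of the ATF4 amino acid response, PSAT1, PSPH, TRIB3, CHAC1 and SLC7A11 fell and DDIT3 rose. PSAT1, an enzyme of serine synthesis, fell from 67.6 to 107 CPM to 26.7 to 48.7 CPM (mean log2 change -1.36 ± 0.14, SD, n = 6).

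**Figure D3:**
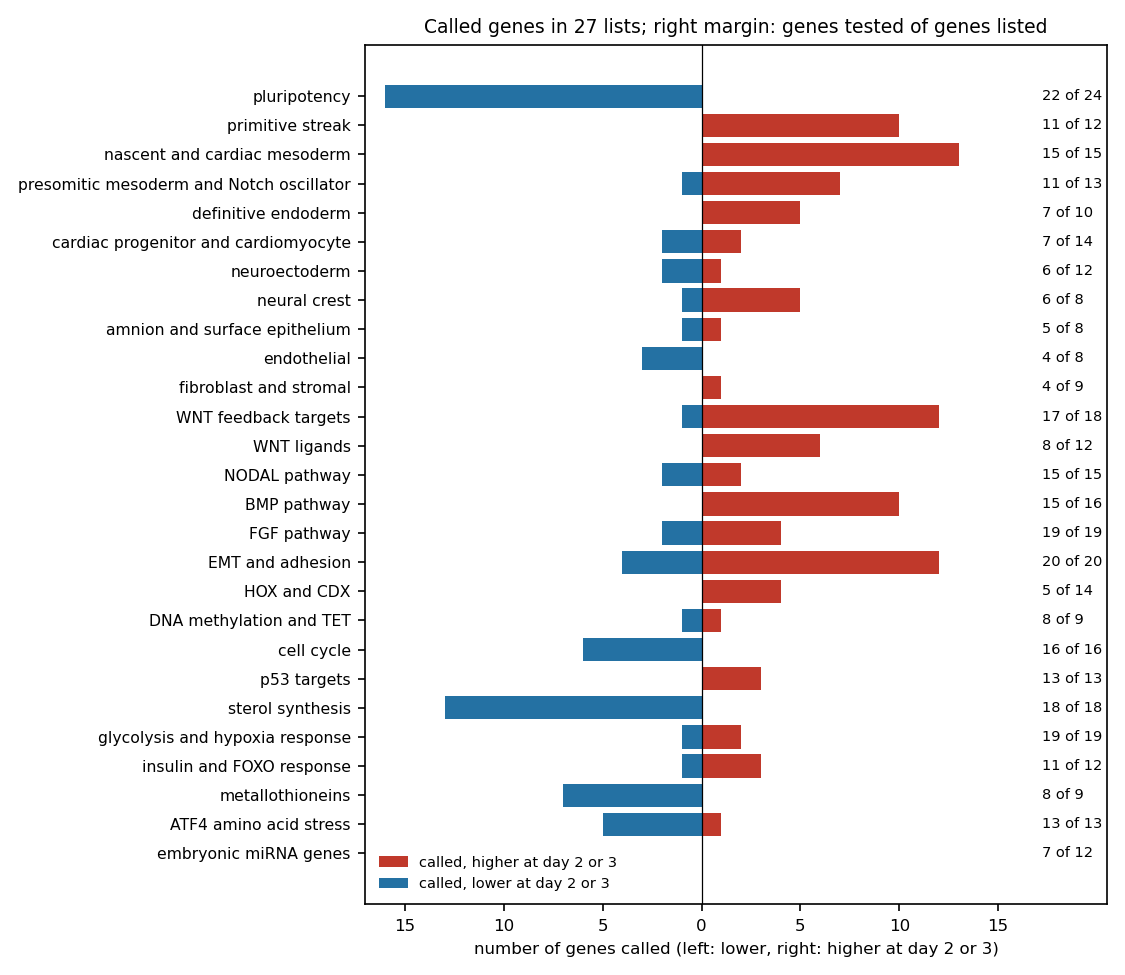
Number of genes called higher (right, red) and lower (left, blue) at day 2 or 3 in 27 gene lists, with the genes tested of those listed in the right margin. The lists of primitive streak, mesoderm, WNT, BMP and HOX genes hold calls to the right only or nearly so, and those of pluripotency, sterol synthesis, cell cycle and metallothionein genes to the left only.

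Many markers of other cell types had too few reads to be tested, and among those tested the share called was above the 20.7% of all genes in most lists. In the cardiac list 2 of 7 tested genes of 14 were called higher, TBX20 and MYL4, and 2 lower, TNNT2 and RYR2. TNNT2, the gene of the protein used to score purity, was at 1.18 to 5.14 CPM at day 0, at 0.27 CPM or less in 5 later libraries and at 1.86 CPM in H9 low. The summed level of the cardiac list was 33.7 to 64.7 CPM at day 0, 38.6 to 88.8 CPM in 5 later libraries and 513 CPM in H9 low. In that library MYL4, an atrial light chain, was at 249 CPM and MYL7 at 156 CPM, against at most 22.4 and 12.8 CPM in the others. MYH6, MYH7, NKX2-5 and NPPA had too few reads to be tested. With the H9 low differentiation left out, the cardiac counts were again 2 higher and 2 lower. With only H9 and IMR90-4 they were 5 higher and 1 lower, and without IMR90-4 low 1 gene was called lower.

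For stromal cells, COL1A2 was the only 1 of 4 tested genes called, and the summed level of the list was 44.3 to 60.1 CPM at day 0 and 124 to 727 CPM later. LUM, a small proteoglycan of connective tissue, was at 105 CPM in H9 low and had at most 0.0368 CPM in any other library. COL3A1 and TCF21 were likewise at 48 and 14.7 CPM in H9 low, and at most 1.1 and 1.18 CPM in the other later libraries. In the neural crest list 5 of 6 tested genes rose, among them PAX3 and SOX9, and ETS1 fell. With limma on log2(TPM + 1) 1 gene of this list was called higher. Its defining genes TFAP2A and TFAP2B were at most 0.307 and 0.0368 CPM and were not tested. SOX10, another defining gene, was among those called higher. It had a median of 1.88 CPM at day 0 and 4.02 CPM later, and at most 7.75 CPM. The summed level of the list was 69.6 to 97.1 CPM at day 0 and 23.9 to 141 CPM later.

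In the neuroectoderm list POU3F1 and SOX3 fell, with PAX6, SOX1 and SIX3 at or under 0.432 CPM in every library. The summed level was 410 to 524 CPM at day 0 and 454 to 1860 CPM later. Endothelial genes gave 3 lower calls of 4 tested (TEK, TIE1 and CLDN5), of which limma on log2(TPM + 1) left 1, with PECAM1 and CDH5 at most 1.15 CPM and a summed level of 52.3 to 79.6 CPM at day 0 and 38.4 to 61.8 CPM later. In the amnion list HAND1 rose and KRT7 fell, and without H9 low 3 genes were called lower. The list had a summed level of 12.8 to 27.5 CPM at day 0 and 11.3 to 299 CPM later, of which HAND1 was the larger part in H9 and IMR90-4. GABRP was at 19.8 CPM in H9 low and at most 2.1 CPM in the other later libraries. The part of any of these cell types in the changes above was not tested.

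The 12 largest shared increases among genes with a mean of at least 5 CPM were MSGN1, GATA6-AS1, GATA6, EVX1, HOTAIRM1, SOX17, HAND1, LINC00261, APLNR, DKK1, CDX1 and RXRG. The order follows the fitted fold change, which for genes with no or few day 0 reads depends on a small added count. GATA6-AS1, a transcript beside and opposite to GATA6, had 0 reads at day 0 and 4.15 to 118 CPM later, at least 2360-fold above the floor. HOTAIRM1, a noncoding RNA of the HOXA cluster, was at 108 CPM in H9 low, 31 and 23.1 in WTC11, and 0.541 to 1.47 in the rest. LINC00261, a long noncoding RNA next to FOXA2, was at 81.9 and 47.8 CPM in IMR90-4 low and high, 9.04 and 29.9 in WTC11, and 0.338 and 2.65 in H9. RXRG, a retinoid X receptor, had 1 read at day 0 and was at 44.8 CPM in H9 high and 0.971 to 17 CPM in the others.

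The 12 largest shared decreases were FOXD3-AS1, IDO1, FOXD3, TRIML2, MT2A, CNMD, LINC00678, LNCPRESS1, BTBD17, LPL, FEZF1-AS1 and MGAT4C. FOXD3, a forkhead repressor of pluripotent cells and neural crest, went from 16.4 to 31.6 CPM to 0.0846 to 1.4 CPM (mean log2 change -5.74 ± 0.81, SD, n = 6, edgeR adjusted p 0.000124). IDO1, which breaks down tryptophan, was at 12.1 to 38.3 CPM at day 0 and at most 0.594 CPM later, with 0 reads in both H9 libraries. LPL, lipoprotein lipase, went from 12.8 to 25.8 CPM to 0.0368 to 0.859 CPM in 5 differentiations and from 46.3 to 5.26 CPM in WTC11 low. CNMD, the chondromodulin gene, fell to 1.19 to 2.11 CPM in H9 and IMR90-4 and to 21.2 and 11.3 CPM in WTC11, from 122 to 221 CPM. The largest spread was in LINC00678, a long noncoding RNA, which was at 171 and 75.4 CPM in WTC11 and 0.211 to 7.2 CPM elsewhere after 203 to 360 CPM. The pairs GATA6 and GATA6-AS1, FOXD3 and FOXD3-AS1, and FEZF1-AS1 and its host overlap or lie head to head, HOTAIRM1 lies among the HOXA genes, and since the strand setting of the counting is not given in the sources used here, reads of 1 partner may be counted for the other.

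**Figure D4:**
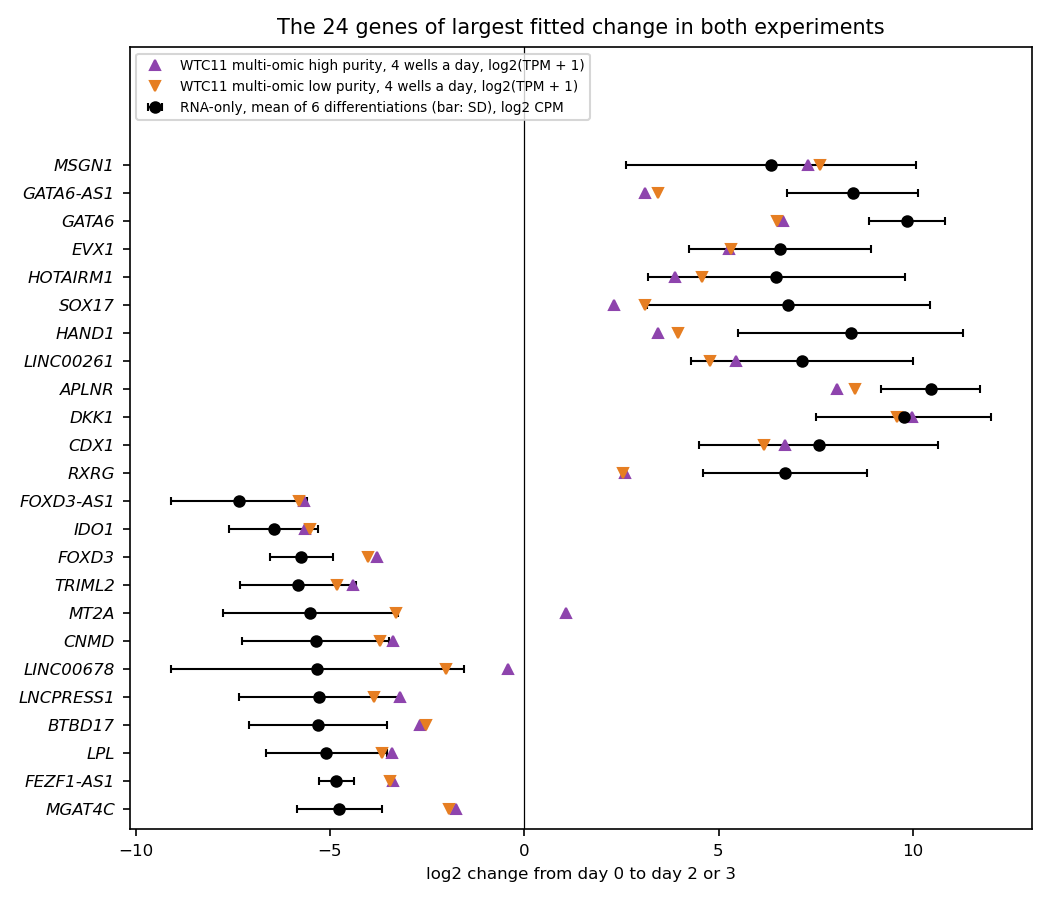
Log2 change of the 12 genes of largest fitted increase and 12 of largest fitted decrease. Black points are the mean of 6 differentiations in log2 CPM with SD bars, and triangles are WTC11 wells of the multi-omic experiment in log2(TPM + 1), up for high and down for low purity. The triangles lie on the same side of 0 as the black point for each gene except MT2A, which was at 1.07 in the high purity wells.

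High and low purity differentiations were compared by the interaction of day and purity, which asks whether the change differed. No gene of 21789 was called by edgeR (0%), with 290 at an unadjusted p under 0.05 and a smallest adjusted p of 1, and DESeq2 called 1. The comparison set 3 differentiations against 3 with 4 residual degrees of freedom, and it does not show that the classes changed alike. The smallest unadjusted p values for a larger increase in high purity were those of MCUB, C7 and WNT5A. WNT5A rose by 6.21, 6.66 and 6.48 on the log2 scale in H9, IMR90-4 and WTC11 high and by 4.57, 5.53 and 4.35 in the low purity differentiations. Its difference was 1.65 with an edgeR adjusted p of 1. The genes named here were picked by their p values, so separate values of the classes are no further evidence of a difference. C7, a complement gene, rose by 5.21 to 6.39 in high and by 2.32 to 3.06 in low purity differentiations, with at most 11.8 CPM in any library. MCUB, a subunit of the mitochondrial calcium uniporter, changed by 0.23 to 0.59 in high and by -1.11 to -0.90 in low purity. In the other direction the smallest p values were those of ATOH1, LOC101929529 and NEBL, none with an adjusted p under 1.

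WTC11 at day 2 differed from H9 and IMR90-4 at day 3 in many genes. The interaction of day with WTC11 was called in 645 of 22841 genes (2.82%), 486 with a more positive and 159 with a more negative change in WTC11. Among the 3509 shared genes, 147 (4.19%) were called different in size: 28 rose more and 37 rose less in WTC11, 6 fell more and 76 fell less. These counts rest on single libraries, since 8 genes were called without WTC11 low, 24 without WTC11 high and 46 without IMR90-4 high.

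In the streak list, TBXT and FGF4 had a called difference. TBXT was higher in WTC11 by 5.24 on the log2 scale (edgeR adjusted p 0.0399), with a mean change of 11.09 in WTC11 and 5.46 in the other lines. FGF4 (5.75) also rose more in WTC11, as did the WNT ligand WNT5B (5.78) and the WNT feedback genes DKK4 (7.09), RNF43 (3.94) and NKD1 (3.38). SOX2 (4.04) and the pluripotency-linked noncoding RNA ESRG (5.58) fell less, with a mean change of -0.05 for ESRG in WTC11 and -5.66 elsewhere. ZEB1 (-3.44), TWIST1 (-4.18) and SMAD6 (-2.45) rose less in WTC11. The sterol genes HMGCS1 (-1.15) and IDI1 (-1.20) had more negative changes there.

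Outside the lists, the largest positive differences among genes with a mean of at least 5 CPM were those of PCSK1 (7.89), THBS2 (7.11), DKK4, TFF3 (6.91) and LOC105378308 (6.64). PCSK1, a prohormone protease, went from 0.697 and 0.719 CPM to 45.6 and 118 CPM in WTC11 low and high and from 2.03 to 2.34 CPM to 0.683 to 1.14 CPM in the other lines. THBS2, a matrix glycoprotein, was at 109 and 102 CPM in WTC11 at day 2 and at most 0.719 CPM in the other lines at day 3, after 25.2 to 44.2 CPM in all lines. The largest negative differences were those of SEMA6D (-10.18), GYPE (-7.19), MEG3 (-7.01), NRG2 (-6.58) and ALPK2 (-6.54). GYPE belongs to a family of near-identical glycophorin genes and is uncertain. SEMA6D, a semaphorin that acts in heart development, rose to 112 to 195 CPM in H9 and IMR90-4, where it had been at 1.59 to 5.07 CPM. In WTC11 it went from 6.25 and 9.59 CPM to 0.189 and 0.525 CPM. ALPK2, a kinase gene, was at 252 to 744 CPM in the other lines and at 1.97 and 11.6 CPM in WTC11, after at most 0.616 CPM. In WTC11 ALPK2 reads numbered 10484 and 10721 at day 4, against 73 and 242 at day 2. MEG3, an imprinted noncoding RNA, was at 27.9 and 41.4 CPM in WTC11 at day 0 and at 0 to 0.0309 CPM in the other lines. At day 2 it was at 27 and 23.9 CPM in WTC11. At day 3 it was at 0.127 to 1.67 CPM in the other lines, so its difference rests on values near the floor there.

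**Figure D5:**
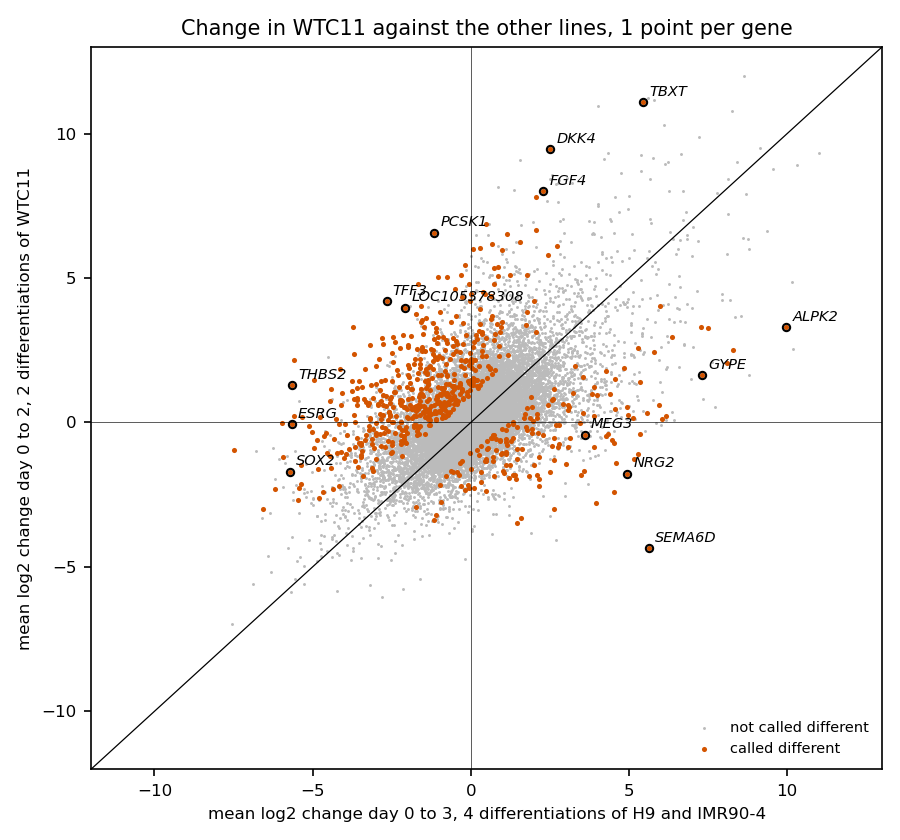
Mean log2 change in the WTC11 differentiations (day 0 to 2) against the mean in the differentiations of H9 and IMR90-4 (day 0 to 3), 1 point per gene; orange points were called different in the interaction test and the line marks equal change. PCSK1, DKK4 and THBS2 lie above the line, by differences of 7.89, 7.09 and 7.11, and SEMA6D and ALPK2 below it, by -10.18 and -6.54.

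Separate poly(A) libraries of WTC11 from the multi-omic experiment, with 4 wells at day 0 and 4 at day 2 in a high purity differentiation of passage 52 and a low purity one of passage 69, gave values for the shared genes in libraries that the shared set did not use. A WTC11 low purity differentiation of passage 69 is named in both experiments, and whether it was the same culture is not stated. Of 1671 shared increases tested there, limma called 981 (58.7%) higher in the high purity wells, against 12.5% of all 20685 genes, and 1078 (64.5%) in the low purity wells, against 14.3%. Of 1416 shared decreases tested, 788 (55.6%) were called lower in the high purity wells, against 7.62%, and 786 (55.5%) in the low purity wells, against 7.16%. Calls in the opposite direction numbered 0 and 1 in high purity and 1 and 1 in low purity, for increases and decreases.

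Values are log2(TPM + 1), which understates changes of low genes, and wells measure the spread within a differentiation. TBXT changed by 9.44 and 9.08 in high and low purity wells, EOMES by 8.12 and 8.00, and MIXL1 by 8.03 and 8.12, all called higher. NANOG changed by -1.08 in high and -3.33 in low purity wells, whereas in the RNA-only WTC11 differentiations the low purity library had kept more NANOG, 260 CPM against 79.4. HAND1 changed by 3.45 and 3.95 and SOX17 by 2.32 and 3.10. MT2A differed in sign between the differentiations, with 1.07 in high and -3.29 in low purity wells, and PSAT1 did not, with -1.55 and -1.38. CDH1 changed by 1.18 and -0.02, as in the RNA-only WTC11 libraries without a marked decrease at day 2.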

How the data were processed

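RNA was sequenced from 12 RNA-only libraries made with a stranded total RNA kit (SMARTer), per the labels. The authors deposited read counts per gene, made with STAR 2.5.3a, featureCounts 2.0.3 and hg38 per the submitters' processing notes. They also deposited TPM values, whose computation and strand setting are not given in the sources used here. From the counts 36 broken lines of 6 genes were left out, and 43382 genes were read. Symbols were matched to RefSeq of GRCh38.

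Counts passing filterByExpr were scaled with TMM. The quasi-likelihood test came from edgeR 4.0.16 (R 4.3.3), with the differentiation as block and day as the term (5 residual degrees of freedom). A call needed an adjusted p (Benjamini-Hochberg) under 0.05 together with a log2 fold change of 1 or more in size. Changes per differentiation are in log2 CPM with a prior count of 2, which understates changes of genes near 0. Interactions of day with purity and with WTC11 had 4 residual degrees of freedom. The pairing comes from the labels, since both libraries of a pair are of 1 differentiation. Their deviations from the day means correlated in all 6 pairs (r 0.17 to 0.36), nearest to the same line in 6 and to the same differentiation in 3.

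Among multi-omic columns of days 0 and 2, 1 of 16 count columns was nearest to the TPM column of its own name, while 16 of 16 TPM columns were nearest to an RNA-only WTC11 library of the same day. The deposited TPM were therefore used there, with TMM, at least 1 TPM in 3 libraries and limma 3.58.1 on log2(TPM + 1). DESeq2 1.42.0, limma-voom, other filters and scalings and single differentiations left out were tried as alternatives. The tests were checked on simulated counts. The libraries, gene lists and comparisons were chosen with earlier results of these data known. Named genes are the 12 largest shared changes in each direction with a mean of at least 5 CPM, members of the 27 lists, and, for the interactions, the 5 largest called differences each way or, with none called, the 3 smallest p each way. Some genes of the lists are not reported here by name. Intervals and floors cover counting error only.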

Additional observations from a re-analysis of the deposited data

Results flagged for a closer look

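MIXL1 had a log2 change of 2.72 in H9 low, set apart from 7.03 to 9.31 in the other 5 differentiations; among 40 genes examined in this way it was the only one so far from the rest, and chance gives about 1 in 20. Of 10 library measures examined, 2 had a library far from the others of its day. RN7SK took 2.89% of reads in the H9 high library of day 0 against 1.59% to 1.91% in the other day 0 libraries. Mitochondrial rRNA genes took 0.286% in the IMR90-4 low library of day 0 against 0.00135% to 0.00252%.

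The change differed between WTC11 and the other lines by the edgeR interaction test for the genes that follow, besides further list genes given in the report. The WTC11 change was more positive for PCSK1 (7.89), THBS2 (7.11), DKK4 (7.09), TFF3 (6.91), LOC105378308 (6.64), LINC00678 (6.22), TBXT (5.24), SOX2 (4.04) and CNMD (3.64). It was more negative for SEMA6D (-10.18), GYPE (-7.19), MEG3 (-7.01), NRG2 (-6.58), ALPK2 (-6.54) and HMGCS1 (-1.15). Line, day and medium schedule cannot be told apart in these values.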

How the results depend on the processing

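Direction was kept under every alternative run in 50 genes that were followed, 40 for the change from day 0 and 10 for the WTC11 difference. Over their gene and setting pairs the call status was the same in 855 and the call was lost in 42, among them LINC00678 in 6 settings and the WTC11 differences of GYPE, TFF3, DKK4, NRG2 and LOC105378308 in 4 each. The 163 called list genes also kept their direction under other scalings, in TPM, and without H9 low, where 155 of 162 tested were called again. Kept direction was partly fixed by how these genes were picked. Among the 50, the 12 largest shared changes each way had been picked for 1 direction in all 6 differentiations. The 10 WTC11 genes were the largest called differences, and the list genes were picked as called. Without a fold threshold 8862 genes were called, 4552 up and 4310 down, 7602 of them shared. With limma on log2(TPM + 1) 2425 were called, 768 up, and 2100 shared; 31.7% of calls were then increases against 55.0%, with the median of all genes at -0.19 against 0.04. Without any filter on low counts that median was 0.13. Leaving out 1 differentiation at a time gave 3403 to 4190 called, 1829 to 2256 up, 1551 to 1934 down and 3266 to 3875 shared. Without the replicate block, that is without pairing by differentiation, 4035 genes were called and 3366 shared; with the well number as a replicate block the multi-omic counts were 4178 and 4439, and none of these counts moved past 1.5 times. Counts within some short gene lists moved further: the larger moves are given beside those lists, and in addition the NODAL list had 1 gene higher with only H9 and IMR90-4, and with limma on log2(TPM + 1) the DNA methylation list had 0 higher and the miRNA list 1 lower.

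For purity, DESeq2 called 1 gene, 1 up, and leaving out a differentiation gave 0 to 0. For WTC11, no filter gave 982 called and 287 down, DESeq2 1762 called, 1184 up and 578 down, and limma-voom 983 called and 759 up. Leaving out a differentiation gave 8 to 892 called, 5 to 593 up and 3 to 299 down for WTC11, 4073 to 4295 for multi-omic high and 4403 to 4512 for multi-omic low purity wells. The cause of these moves was not tested, apart from the number of genes and samples that each alternative changes by construction.

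With 1 library per differentiation and day, preparation and biology cannot be told apart within a differentiation. Genes with few reads in most libraries, such as most HOX genes, were not tested.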
